A study of Homo sapiens with 6 samples.

Results

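The 10 genes described here encode MYC, its partner MAX and the proteins that share MAX or the related partner MLX: MYC, MAX, MXD1, MXD3, MXD4, MXI1, MNT, MGA, MLX and MLXIP. They were taken by name, and all 10 were among the 35716 genes of the count table and among the 15202 genes tested. The RNA came from MIA PaCa-2, an established human line of pancreatic ductal carcinoma cells with the genotype labelled WT. The 3 untreated libraries came from cells kept in serum-containing medium, and the 3 triptolide libraries from cells given 10 nM triptolide for 24 h. Triptolide is a plant diterpenoid that binds the XPB subunit of TFIIH and blocks initiation by RNA polymerase II. The series' own text calls the triptolide cells a control group, and the extraction text speaks of pancreas where the other labels name the cell line. Poly(A) RNA was sequenced. The labels do not speak of separate cultures within a group, and the p-values reflect only how far these libraries vary, which could be technical variation.

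MYC is a transcription factor of the basic helix-loop-helix leucine zipper class that binds E-box DNA, of which CACGTG is the core form, only as a dimer with MAX. The MXD proteins, MXI1 and MNT bind MAX as well, occupy the same sites and recruit the SIN3 histone deacetylase corepressor, so that they act against MYC. MGA pairs with MAX in a Polycomb complex, PRC1.6, and MLX pairs with the nutrient-sensing factors MLXIP (MondoA) and MLXIPL (ChREBP). The MYC mRNA and protein are short-lived, and MYC drives growth programmes such as ribosome production in many carcinomas.

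Library totals ran from 16302961 to 23262713 counts. Levels are given in CPM, the read count normalised to a fixed library size after TMM scaling, and a gene is said to rise or fall at an edgeR adjusted p under 0.05. Of all 15202 genes tested, 10.0% rose and 5.82% fell. The carcinoma keratin genes KRT8, KRT18 and KRT19 were abundant in all libraries, while EPCAM had 0 to 3 and CDH1 0 to 7 counts per library. Of 6 tested carcinoma and ductal markers 1 fell, KRT18, from 868 ± 168 to 502 ± 56.9 CPM (edgeR adjusted p = 0.0123), and the 9 on the list summed to 2665 to 3744 and 2056 to 2740 CPM. KRT19, at 247 and 163 CPM in the mean, was lower in all triptolide libraries and did not pass. The acinar and islet markers found in the table, 5 of 9, summed to between 0.0 and 0.175 CPM per library. Of 24 tested placental trophoblast markers 22 rose, and the list of 35 summed to 32.1 to 34.6 CPM in the untreated and 623 to 1008 CPM in the triptolide libraries. In the untreated libraries 8 of these 35 were at 0 (PSG2, PSG6, HSD3B1, LGALS13, ERVFRD-1, GCM1, INSL4 and PLAC1), and none of the 35 was at 0 in all triptolide libraries. Of 5 tested blood markers 4 rose, and 12 such genes summed to 3.32 to 4.37 and 13.1 to 25.1 CPM. Of 15 tested fibroblast markers 9 fell and 0 rose (0 also by DESeq2, by limma-voom and at an unadjusted edgeR p under 0.05). The 18 on the list summed to 2790 to 4003 and 1797 to 2465 CPM. CDH2 had 34, 42 and 28 counts untreated and 0 with triptolide. FAP was also at 0 with triptolide, but had only 2, 6 and 3 counts untreated and was too low to test. Of 3 tested endothelial markers 1 rose (VWF) and 1 fell (CDH5), with sums of 21.7 to 26.1 and 16.3 to 22.2 CPM. The lists are named after cell types, and whether their reads came from the MIA PaCa-2 cells or from other cells was not tested. Nor was the part of such reads in the results below. The most abundant genes of the fibroblast list were VIM (2256 CPM untreated and 1356 CPM with triptolide in the mean), S100A4 (388.8 and 314.4 CPM) and COL1A2 (322.5 and 328.5 CPM). In bulk RNA, fewer cells of a type and less RNA per cell cannot be told apart.

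Of the 10 genes, MXD1 and MXD3, 2 of the MAX-binding antagonists of MYC, rose with triptolide, and 0 fell. These are 20.0% of the network genes, where 10.0% of all genes tested rose and 5.82% fell, and with 10 genes the shares differ by 1 gene. The mean level of MYC itself was 313 ± 17.8 CPM in untreated and 247 ± 14.5 CPM in triptolide libraries (SD, n = 3 libraries each), and it did not pass the test. At an unadjusted edgeR p under 0.05, 3 of the 10 were higher and 1 lower, and both DESeq2 and limma-voom called the same numbers as edgeR, 2 higher and 0 lower. The share of all genes at that unadjusted threshold was not counted, here or for any list, so such counts stand without a background. The median log2 fold change of the 10 was 0.14, against -0.004 over all genes tested. In 4 of the 10 the 2 groups did not overlap, 2 higher and 2 lower, where 36.7% of all tested genes had groups apart.

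**Figure D1:**
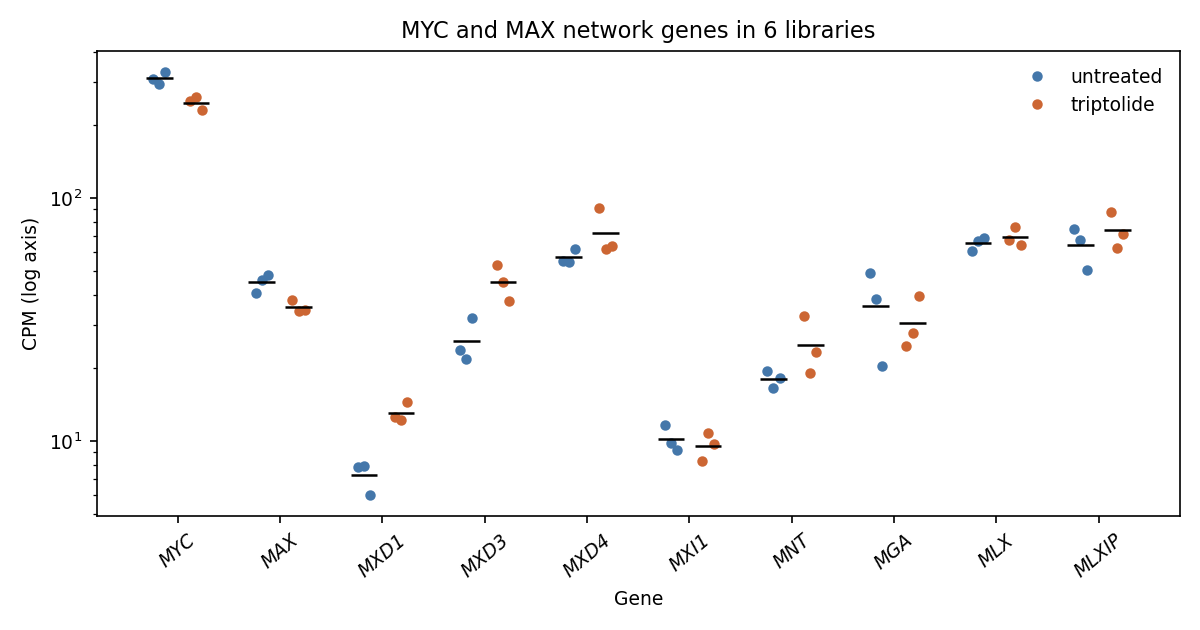
CPM of each network gene (log axis) in the 3 untreated and 3 triptolide libraries, with replicates 1 to 3 from left to right in each group and a black line at each group mean. The groups lie apart for MYC and MAX (triptolide lower) and for MXD1 and MXD3 (triptolide higher), and overlap for the other 6 genes.

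MYC (ENSG00000136997) had 310, 296 and 331 CPM in untreated replicates 1, 2 and 3 and 251, 260 and 231 CPM in the triptolide libraries. Every triptolide library lay below every untreated one. MYC differed by -0.34 ± 0.15 (SE) in log2 terms, a level 1.26-fold lower, with an unadjusted p of 0.0431 and an edgeR adjusted p of 0.148. MYC rested on 3985 to 6025 counts per library, so counting error was small beside the spread between libraries. With a correction for the GC content of transcripts, MYC passed the test at a log2 fold change of -0.42 (edgeR adjusted p = 0.0233). That correction also raised the count of fallen genes as a whole, from 884 of 15202 to 1855 of 15077. Over all 16 alternatives the log2 fold change of MYC stayed negative, between -0.42 and -0.16, and its adjusted p ran from 0.0233 to 0.749.

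MAX (ENSG00000125952), the partner that MYC, the MXD proteins, MNT and MGA all need, had 40.6, 46.2 and 48.4 CPM in the untreated and 38.2, 34.3 and 34.6 CPM in the triptolide libraries. Its groups also did not overlap, with triptolide lower throughout. MAX differed by -0.34 ± 0.16 (SE) in log2 terms, and edgeR gave an adjusted p of 0.174. It passed only with the GC correction, at -0.41 (edgeR adjusted p = 0.0222, and 0.805 with scaling on ribosomal protein genes at -0.15). Per base of transcript the ratio of MYC to MAX was 11.3, 9.44 and 10.1 in the untreated and 9.69, 11.2 and 9.87 in the triptolide libraries, and these ranges overlapped.

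Of the MXD genes, MXD1 and MXD3 passed the test, and MXD4 and MXI1 did not. MXD1 (ENSG00000059728), also known as MAD1 and induced in differentiating cells, had 7.78, 7.86 and 5.99 CPM in the untreated and 12.5, 12.2 and 14.4 CPM in the triptolide libraries. All triptolide values lay above all untreated ones. MXD1 rose by 0.86 ± 0.19 (SE) in log2 terms, or 1.81-fold (edgeR adjusted p = 0.0107). The call ended without triptolide replicate 3 (edgeR adjusted p = 0.0533) and with ribosomal protein scaling (adjusted p = 0.0656), at log2 fold changes of 0.78 and 1.02. Over the 16 alternatives MXD1 passed in 14. Of its annotated exon bases 3.73% are shared with SNRNP27 on the same strand.

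MXD3 (ENSG00000213347), which is known from proliferating cells, had 23.6, 21.9 and 32.2 CPM untreated and 52.9, 45.3 and 37.6 CPM with triptolide. The lowest triptolide library lay above the highest untreated one, untreated replicate 3. MXD3 rose by 0.81 ± 0.20 (SE) in log2 terms, or 1.75-fold (edgeR adjusted p = 0.0179). Without untreated replicate 1 or 2 the adjusted p was 0.0726 and 0.101. MXD3 passed in 14 of the 16 alternatives. Its annotated exons share 22.5% of their bases with PRELID1 on the opposite strand and 18.0% with RAB24 on the same strand, and the strand setting of the counting is not given in the sources used here. PRELID1 stood at 233 ± 36.8 and 233 ± 47.6 CPM (edgeR adjusted p = 0.99) and RAB24 at 10.6 ± 1.04 and 9.86 ± 1.37 CPM (adjusted p = 0.752), and neither passed the test.

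MXD4 (ENSG00000123933), the most abundant of the MXD genes, had 55.4, 54.8 and 62 CPM in the untreated and 90.9, 61.8 and 63.8 CPM in the triptolide libraries. Triptolide replicate 1 stood above both others, and the groups overlapped. MXD4 did not pass the test (log2 fold change 0.33 ± 0.18 SE, edgeR adjusted p = 0.249), and without triptolide replicate 1 its log2 fold change was 0.15. MXI1 (ENSG00000119950), also known as MXD2, had 11.6, 9.85 and 9.18 CPM untreated and 8.3, 10.8 and 9.69 CPM with triptolide. The groups were interleaved (log2 fold change -0.09 ± 0.19 SE, edgeR adjusted p = 0.795), and the sign turned to 0.068 with ribosomal protein scaling, to 0.0031 without untreated replicate 1 and to 0.016 without triptolide replicate 1. An effect that passed in MXD1 and MXD3 and not in MXD4 and MXI1 is not thereby shown to differ between the genes, and that difference was not tested.

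MNT (ENSG00000070444), the broadly expressed antagonist of MYC, had 19.4, 16.6 and 18.1 CPM untreated and 32.6, 19 and 23.2 CPM with triptolide. Only triptolide replicate 2 fell within the untreated range. MNT differed by 0.46 ± 0.21 (SE) in log2 terms (unadjusted p = 0.0456, edgeR adjusted p = 0.153). Without triptolide replicate 1 it was 0.24. Triptolide replicate 1 was the highest of the 6 libraries in MXD3, MXD4, MNT and MLXIP, and it also had the highest trophoblast sum, 1008 CPM against 655 and 623 CPM in triptolide replicates 2 and 3. Without it, MXD1 and MXD3 kept their calls (edgeR adjusted p = 0.0149 and 0.0329). The annotated exons of MNT share 12.2% of their bases with an opposite-strand gene, AC006435.1.

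**Figure D2:**
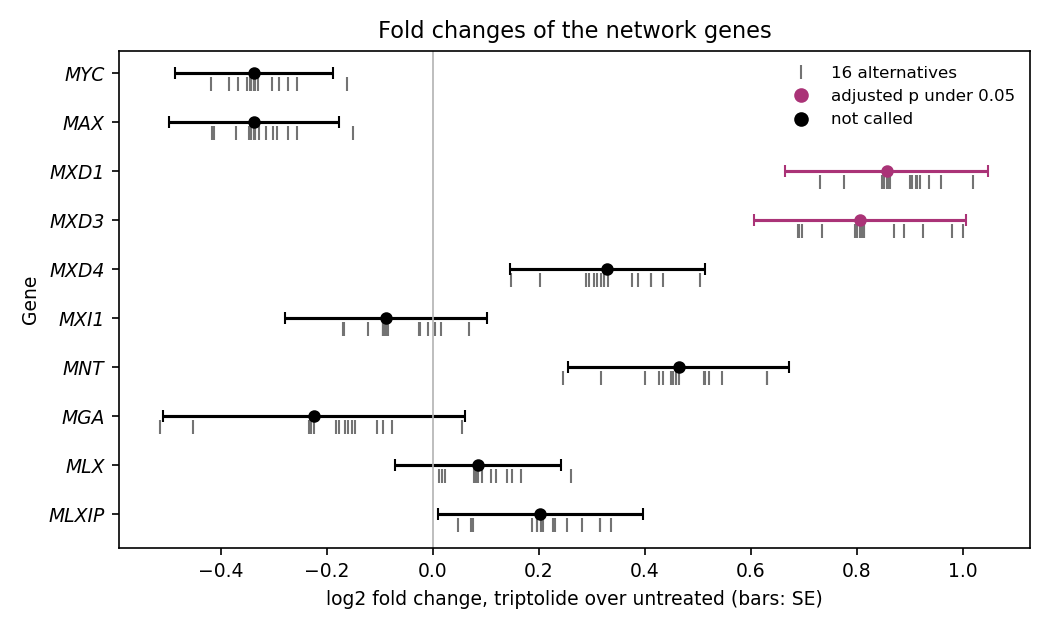
Log2 fold change of each network gene, triptolide over untreated (points with SE bars, purple where the adjusted p was under 0.05), with the values under 16 alternative analyses as grey ticks below. MXD1 and MXD3 lie between 0.69 and 1.02 in all of them, MYC and MAX stay below 0, and the ticks of MXI1 and MGA cross 0.

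The 250 bases before the RefSeq start (GRCh38.p14) are shown for both genes that rose and for the 3 network genes whose single annotated start has the E-box core CACGTG in that window. The capitals mark CACGTG, which reads the same on both strands. MXD1 is at chr2:69914859-69915108 (plus strand), MXD3 at chr5:177312753-177313002 (minus), MXD4 at chr4:2262110-2262359 (minus), MNT at chr17:2401061-2401310 (minus) and MLX at chr17:42566850-42567099 (plus), each written 5′ to 3′ on the strand of its gene.
MXD1: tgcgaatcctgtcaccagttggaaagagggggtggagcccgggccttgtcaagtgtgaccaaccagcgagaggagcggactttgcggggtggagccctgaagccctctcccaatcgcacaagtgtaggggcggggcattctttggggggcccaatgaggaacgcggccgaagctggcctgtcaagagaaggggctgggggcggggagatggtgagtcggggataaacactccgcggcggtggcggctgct
MXD3: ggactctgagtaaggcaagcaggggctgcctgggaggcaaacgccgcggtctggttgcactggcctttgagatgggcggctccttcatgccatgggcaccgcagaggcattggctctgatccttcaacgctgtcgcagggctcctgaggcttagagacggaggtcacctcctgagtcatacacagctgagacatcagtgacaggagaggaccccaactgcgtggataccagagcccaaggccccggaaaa
MXD4: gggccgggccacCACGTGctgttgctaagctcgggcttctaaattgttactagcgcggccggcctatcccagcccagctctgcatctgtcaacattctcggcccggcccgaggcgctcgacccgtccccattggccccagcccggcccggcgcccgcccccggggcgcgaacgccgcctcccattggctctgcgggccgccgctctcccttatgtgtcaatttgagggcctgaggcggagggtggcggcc
MNT: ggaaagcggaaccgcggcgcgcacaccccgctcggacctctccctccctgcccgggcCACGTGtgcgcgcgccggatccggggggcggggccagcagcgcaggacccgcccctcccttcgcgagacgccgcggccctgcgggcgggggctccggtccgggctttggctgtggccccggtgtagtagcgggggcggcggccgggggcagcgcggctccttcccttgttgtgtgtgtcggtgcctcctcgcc
MLX: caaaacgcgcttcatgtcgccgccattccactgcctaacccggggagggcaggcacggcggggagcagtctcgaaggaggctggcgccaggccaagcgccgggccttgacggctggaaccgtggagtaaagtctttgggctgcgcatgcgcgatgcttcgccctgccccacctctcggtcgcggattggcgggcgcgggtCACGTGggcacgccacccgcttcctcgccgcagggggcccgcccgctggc
No CACGTG was found in these windows of MXD1 and MXD3, the genes that rose. MXD4, MNT and MLX, which did not pass the test, each hold 1, with its first base at -238, -193 and -50 from the start. MLXIP holds none, nor does any of the 2 starts of MAX or the 3 starts each of MXI1 and MGA. MYC had no start among the windows used, so it was not searched. Of 35093 windows of the same length in RefSeq, 6.34% hold CACGTG. The CCAAT box, searched as CCAAT and, for the other strand, ATTGG, has 2 matches each in the MXD1 and MXD4 windows and 1 each in those of MXD3, MLX and MLXIP, and 32.0% of all windows hold it. A match is a description of the letters and no site of binding, and the absence of one says only that these letters are not in the window.

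MGA (ENSG00000174197), a very large protein that joins MAX to PRC1.6, had the widest spread of the 10 genes among untreated libraries, relative to its mean. It had 49, 38.4 and 20.4 CPM untreated and 24.5, 27.9 and 39.7 CPM with triptolide. The lowest untreated library lay below every triptolide library and the highest above them all (log2 fold change -0.22 ± 0.28 SE, edgeR adjusted p = 0.632). The log2 fold change was -0.51 without untreated replicate 3 and 0.055 without untreated replicate 1.

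MLX (ENSG00000108788), the partner of the glucose-sensing factors, had 60.5, 66.9 and 68.6 CPM untreated and 67.5, 76.3 and 64 CPM with triptolide. The groups overlapped (log2 fold change 0.08 ± 0.16 SE, edgeR adjusted p = 0.757), and 18.1% of its annotated exon bases are shared with PSMC3IP on the opposite strand. MLXIP (ENSG00000175727), which enters the nucleus with MLX when glucose phosphates build up, had 74.4, 67.2 and 50.6 CPM untreated and 87.6, 62.2 and 71.4 CPM with triptolide. Its groups overlapped too (log2 fold change 0.20 ± 0.19 SE, edgeR adjusted p = 0.515).

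The other genes of the network lie outside the 10. MLXIPL (ENSG00000009950), the carbohydrate-responsive partner of MLX, had 7.39, 6.31 and 8.74 CPM untreated and 14.5, 10.6 and 10.7 CPM with triptolide, with all triptolide values higher. It rose 1.58-fold at the edge of the threshold (edgeR adjusted p = 0.0499), and the adjusted p lay above 0.05 in 9 of 16 alternatives, up to 0.217 without untreated replicate 2. MYCL, a MYC paralog, had 1.51, 1.38 and 1.98 CPM untreated and 2.64, 1.97 and 2.47 CPM with triptolide (edgeR adjusted p = 0.193). MYCN, the paralog known from neuroblastoma, had 1 count in untreated replicate 2, 1 in triptolide replicate 1 and 0 in the other libraries, too few to test. MYC was the only one of these paralogs above 3 CPM in any of the 6 libraries.

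To compare genes with each other, counts were divided by the exon length of each gene in GENCODE 29 and scaled to the same total in every library. On this scale MYC was the highest of the 10 in both groups, at 315 ± 21.8 untreated and 255 ± 7.75 with triptolide (SD, n = 3 libraries). MLX followed at 46.4 ± 3.12 and 50.3 ± 2.34. In untreated libraries MAX (30.8 ± 1.86), MXD4 (24.6 ± 1.07) and MXD3 (15.1 ± 1.71) came next, each apart from the one above it. With triptolide the levels of MXD4 (31.7 ± 6.7), MXD3 (27.1 ± 3.27) and MAX (25 ± 2.31) overlapped. MLXIP stood at 14.2 ± 3.98 untreated, within the range of MXD3, and at 16.5 ± 3.15 with triptolide. MXI1, MGA and MNT lay between 6.28 and 6.78 untreated with overlapping ranges, and MXD1 was lowest at 3.48 ± 0.82. With triptolide MXD1 reached 6.42 ± 1.2, and the ranges of MNT (8.88 ± 2.47), MXI1 (6.46 ± 0.93), MXD1 and MGA (5.48 ± 1.93) each overlapped the next. Exon lengths cover all annotated transcripts of a gene, so a gene with long unused exons is placed too low.

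The summed per-length level of the 5 MAX-binding antagonists MXD1, MXD3, MXD4, MXI1 and MNT was 60.3, 54.4 and 53.8 in the untreated and 92.1, 69.4 and 80.1 in the triptolide libraries. MYC on the same scale was 339, 310 and 297 in the untreated and 251, 251 and 264 in the triptolide libraries. The ratio of MYC to that sum was 5.62, 5.71 and 5.51 untreated and 2.72, 3.62 and 3.3 with triptolide. Mean ratios were 5.61 ± 0.099 and 3.21 ± 0.45 (SD, n = 3), and the groups did not overlap. The sum was put together after the values of its genes had been seen, and it is a description with no test. MXD4 and MXD3 supplied most of the sum in every library.

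**Figure D3:**
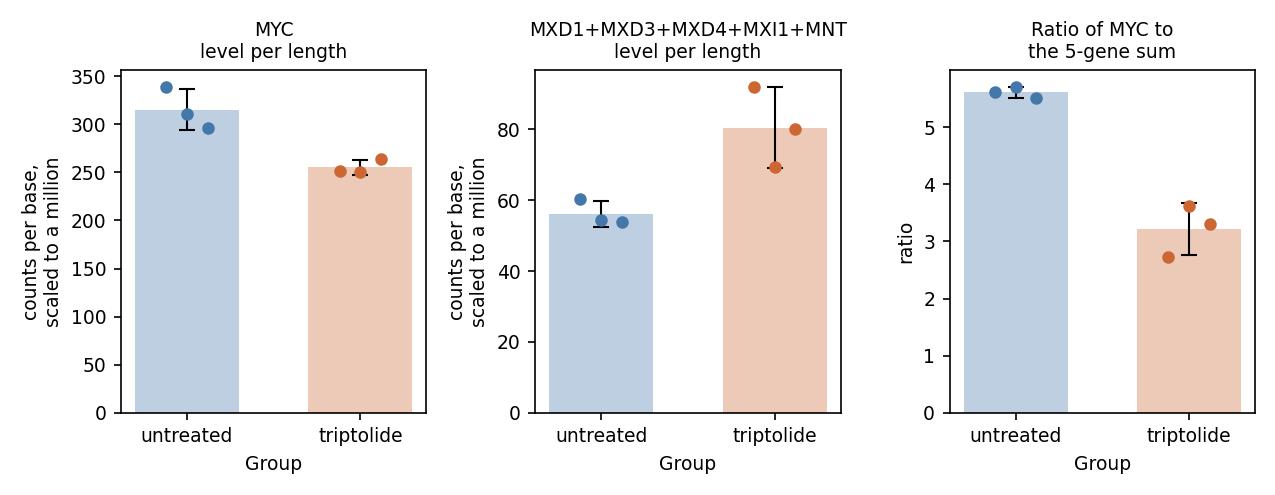
Per-length level of MYC (left), summed per-length level of MXD1, MXD3, MXD4, MXI1 and MNT (middle) and the ratio of both (right) in each library, with bars at the group means and SD error bars (n = 3). The ratio lies at 5.51 to 5.71 in the untreated and 2.72 to 3.62 in the triptolide libraries.

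Among genes that MYC is known to activate, calls were found on the lower side only. Of 77 tested genes on this list, which holds ribosome assembly, nucleotide synthesis and cell cycle genes, 12 fell and 0 rose, or 15.6% fallen against 5.82% of all genes tested. The median log2 fold change of the list was -0.31, and 67 of the 77 had a negative value. At an unadjusted edgeR p under 0.05, 32 were lower and 0 higher, a count with no share of all genes beside it. DESeq2 called 19 lower and limma-voom 14 lower, with 0 higher in each. Over all 15202 genes tested, edgeR called 884 lower, DESeq2 1123 and limma-voom 899. Triptolide libraries lay entirely below the untreated ones in 34 of the 77, where 16.9% of all genes did so.

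RCC1, the nucleotide exchange factor of the GTPase Ran, had 278, 280 and 296 CPM untreated and 154, 120 and 135 CPM with triptolide. RCC1 fell 2.09-fold (log2 fold change -1.07 ± 0.16 SE, edgeR adjusted p = 0.00103) and passed in all 16 alternatives, and 6.22% of its exon bases are shared with SNHG3 on the same strand. DKC1, the pseudouridine synthase of small nucleolar and telomerase RNPs, had 385, 393 and 398 CPM untreated and 235, 269 and 260 CPM with triptolide. It fell 1.54-fold (edgeR adjusted p = 0.015), and did not pass without untreated replicate 1, untreated replicate 2 or triptolide replicate 3 (adjusted p = 0.05003, 0.0787 and 0.0623). PPAN, a ribosome assembly factor, had 12.9, 11.1 and 11.6 CPM untreated and 6.54, 5.81 and 5.78 CPM with triptolide, a fall of 1.96-fold (edgeR adjusted p = 0.0043), and 56.0% of its annotated exon bases are shared with the readthrough gene PPAN-P2RY11.

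The count of fallen targets depended on single libraries and on scaling. When untreated replicates 1, 2 and 3 were left out in turn, 4, 2 and 7 of the 77 targets fell. Leaving out triptolide replicate 3 gave 2, while leaving out triptolide replicate 1 gave 18. The counts over all genes moved as well. Without untreated replicates 1, 2 and 3, 531 of 15838, 407 of 15903 and 711 of 15693 genes fell. Without triptolide replicates 3 and 1, 457 of 15429 and 1035 of 15721 fell. The count of targets was 3 of 74 once genes averaging under 5 CPM were left out, where 336 of 10290 genes fell. It was 31 of 77 with the GC correction, where 1855 of 15077 genes fell. Scaling on ribosomal protein genes gave 1 of 77, where 133 of 15202 genes fell. That scaling moved the median of all genes from -0.004 to 0.17. With it the median of the list was -0.13, and DKC1 and PPAN did not pass (edgeR adjusted p = 0.305 and 0.109).

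Of the list's promoter windows, 65 genes had one in RefSeq, and 17 of these (26.2%) hold CACGTG, beside 6.34% of all windows. The list was counted at a single start per gene and all windows at every distinct start, so the shares differ in unit. The share of the list describes genes listed as MYC targets and bears on no change in these libraries.

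Of 7 tested genes that MYC is known to repress, 4 rose (57.1%, against 10.0% of all genes) and 0 fell, with 4 higher and 0 lower by DESeq2, by limma-voom and at an unadjusted edgeR p under 0.05. The median log2 fold change was 1.03. CDKN1C, an inhibitor of cyclin-dependent kinases that placenta also expresses, had 2.02, 1.27 and 1.54 CPM untreated and 9.43, 6.73 and 5.62 CPM with triptolide, a rise of 4.47-fold (edgeR adjusted p = 0.000402). CDKN1A, the p21 gene and also a target of p53, rose 2.72-fold (edgeR adjusted p = 0.000263), with 9.24, 8.24 and 9.73 CPM untreated and 26.5, 24.4 and 23.3 CPM with triptolide. NDRG1, a gene of stress and differentiation, had 37, 37.8 and 28.4 CPM untreated and 90, 81.4 and 82.3 CPM with triptolide, a rise of 2.46-fold (edgeR adjusted p = 0.000479). CEBPA, a differentiation factor on the list that was named after its values were seen, rose 2.04-fold to 19 ± 4.62 CPM, and its edgeR adjusted p was 0.0583 without untreated replicate 2. Of the CEBPA exon bases, 25.0% are shared with an opposite-strand gene, AC008738.3. GADD45A (51.8 and 44.6 CPM), NDRG2 (9.58 and 7.41 CPM) and CEBPD (3.16 and 2.78 CPM) were lower in the mean with triptolide and did not pass, and CDKN2B was too low to test.

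**Figure D4:**
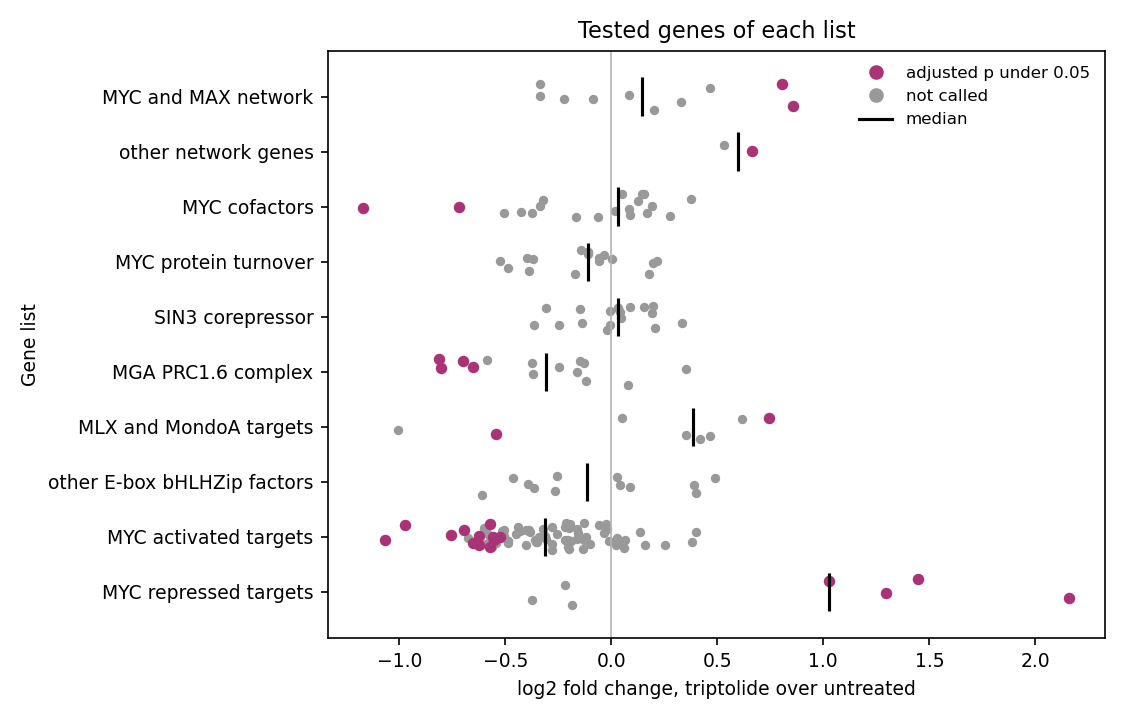
Log2 fold change, triptolide over untreated, of every tested gene on each list (points, purple where the adjusted p was under 0.05), with a black line at each list's median. The activated MYC targets centre on -0.31 with calls on the lower side only, the repressed targets hold 4 risen genes above 1, and the corepressor and protein turnover lists hold no call. The list labelled bHLHZip also holds basic helix-loop-helix factors without a leucine zipper.

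Of 14 tested genes for proteins that work with MGA in PRC1.6, 4 fell and 0 rose (28.6%, against 5.82% of all genes). DESeq2 and limma-voom gave the same counts. At an unadjusted edgeR p under 0.05, where no share of all genes was counted, 7 were lower and 0 higher. The median log2 fold change was -0.31. E2F6, the repressor that brings the complex to E2F sites, had 18, 19.5 and 19.8 CPM untreated and 10.5, 10.5 and 11.6 CPM with triptolide, a fall of 1.76-fold (edgeR adjusted p = 0.00705). PCGF6, the subunit that defines this Polycomb variant, had 22.9, 24.7 and 23.5 CPM untreated and 12, 12.9 and 15.8 CPM with triptolide, a fall of 1.75-fold (edgeR adjusted p = 0.00884). CBX1, a heterochromatin protein, fell 1.57-fold to 122 ± 18 CPM (edgeR adjusted p = 0.0187). RING1, a ubiquitin ligase of H2A named after its values were seen, fell 1.63-fold to 35.1 ± 5.49 CPM (edgeR adjusted p = 0.0253).

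Without untreated replicate 2 or triptolide replicate 3 the count of fallen PRC1.6 genes was 2 of 14, where 407 of 15903 and 457 of 15429 genes fell. It was also 2 once genes averaging under 5 CPM were left out, where 336 of 10290 genes fell. With ribosomal protein scaling it was 0, where 133 of 15202 genes fell. The lists share genes: HDAC1 and HDAC2 stand on this one and among the SIN3 corepressor genes, WDR5 among the MYC cofactors and CBX3 among the activated targets. CBX1 also did not pass without untreated replicate 1 (edgeR adjusted p = 0.0697), nor RING1 without untreated replicate 3 or triptolide replicate 2 (adjusted p = 0.0669 and 0.0647).

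Among 20 tested cofactors of MYC, 2 fell and 0 rose (10.0% fallen, against 5.82% of all genes), with a median log2 fold change of 0.03. At an unadjusted edgeR p under 0.05, where no share of all genes was counted, 5 were lower and 0 higher. DESeq2 called 3 and limma-voom 2 lower with 0 higher. KAT5, the acetyltransferase TIP60 that acetylates MYC, had 8.06, 7.8 and 8.41 CPM untreated and 4.02, 2.32 and 4.47 CPM with triptolide, a fall of 2.25-fold (edgeR adjusted p = 0.00803), and 38.6% of its exon bases are shared with RNASEH2C on the opposite strand. PIM1, a kinase that phosphorylates MYC, had 22.7, 20.5 and 19.1 CPM untreated and 14.3, 11.4 and 12.4 CPM with triptolide, a fall of 1.64-fold (edgeR adjusted p = 0.0163). PIM1 lost its call when untreated replicate 1, untreated replicate 2, triptolide replicate 2 or triptolide replicate 3 was left out (edgeR adjusted p = 0.0737, 0.0631, 0.0541 and 0.0702). Neither gene passed with ribosomal protein scaling (adjusted p = 0.106 for KAT5 and 0.301 for PIM1), and the GC correction gave 6 fallen cofactors.

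Of 17 tested genes for the turnover of MYC protein, 0 rose and 0 fell in edgeR, DESeq2 and limma-voom. Over all genes tested, 10.0% rose and 5.82% fell in edgeR, and at those shares a list of 17 genes holds few calls. Of the 17, 3 were lower and 0 higher at an unadjusted edgeR p under 0.05. The median log2 fold change was -0.11. SET, an inhibitor of the phosphatase PP2A, stood at 701 ± 32.5 and 500 ± 93.3 CPM (edgeR adjusted p = 0.0785) and HUWE1, a ubiquitin ligase, at 335 ± 108 and 379 ± 74.7 CPM (adjusted p = 0.657). Fallen genes numbered 2 without triptolide replicate 1 and 1 without triptolide replicate 2, and the GC correction gave 1 risen and 3 fallen, SET among them (edgeR adjusted p = 0.0299).

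The SIN3 corepressor that MXD proteins recruit also had 0 risen and 0 fallen of 18 in edgeR, DESeq2 and limma-voom. Over all genes tested, 10.0% rose and 5.82% fell in edgeR. Of the 18, 1 was lower and 0 higher at an unadjusted edgeR p under 0.05. The median log2 fold change of the list was 0.03. RBBP7, a histone-binding subunit, stood at 373 ± 16.4 and 385 ± 36.6 CPM (edgeR adjusted p = 0.872) and the deacetylase gene HDAC1 at 338 ± 1.55 and 306 ± 3.91 CPM (adjusted p = 0.531). HDAC1 was lower in all 3 triptolide libraries than in any untreated one, by 1.11-fold in the mean. With the GC correction 1 of the 18 rose and 1 fell.

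Among 8 tested targets of MLX and MLXIP, 1 rose and 1 fell (12.5% each, beside 10.0% risen and 5.82% fallen over all genes), and DESeq2 and limma-voom each made as many calls. Their median log2 fold change was 0.39. At an unadjusted edgeR p under 0.05, where no share of all genes was counted, 3 were higher and 2 lower. TXNIP, the glucose-responsive inhibitor of glucose uptake that serves as the standard readout of MLXIP, had 105, 103 and 102 CPM untreated and 64.1, 75.3 and 73.4 CPM with triptolide, a fall of 1.46-fold (edgeR adjusted p = 0.0309). PFKFB2, a regulator of glycolysis, had 8.85, 7.08 and 5.17 CPM untreated and 11.7, 10.2 and 13.4 CPM with triptolide, a rise of 1.68-fold (edgeR adjusted p = 0.0419). The TXNIP call ended when untreated replicate 1, untreated replicate 2, triptolide replicate 2 or triptolide replicate 3 was left out (edgeR adjusted p = 0.107, 0.123, 0.0501 and 0.0996). That of PFKFB2 ended when untreated replicate 2, untreated replicate 3, triptolide replicate 1 or triptolide replicate 3 was left out (adjusted p = 0.121, 0.119, 0.0646 and 0.148). Neither passed with ribosomal protein scaling (adjusted p = 0.479 for TXNIP and 0.154 for PFKFB2), with library totals alone (0.066 and 0.0513) or once genes averaging under 5 CPM were left out (0.0748 and 0.0506). The GC correction gave 3 higher and 2 lower, and testing without the low-count filter 2 higher and 1 lower.

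Of 12 other tested basic helix-loop-helix factors that read E-boxes, not all with a leucine zipper, 0 rose and 0 fell in edgeR, DESeq2 and limma-voom. Over all genes tested, 10.0% rose and 5.82% fell in edgeR. Of the 12, 2 were higher and 2 lower at an unadjusted edgeR p under 0.05. The median log2 fold change was -0.11. TFE3, a regulator of lysosome genes, stood at 170 ± 2.89 and 141 ± 20.3 CPM (edgeR adjusted p = 0.279) and USF2, a ubiquitous E-box factor, at 145 ± 19.3 and 148 ± 37 CPM (adjusted p = 0.939). Without triptolide replicate 1 the counts were 1 higher and 1 lower, and without untreated replicate 3 there was 1 lower. The GC correction gave 1 higher and 3 lower, TFE3 among them (edgeR adjusted p = 0.0182), and leaving out genes averaging under 5 CPM gave 1 higher.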

How the data were processed

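Raw counts per gene, whole numbers under Ensembl identifiers, are what the authors deposited. The submitters' processing notes list HISAT2 and featureCounts without versions. No source used here gives the genome build, annotation or strand setting, so reads of overlapping genes cannot be told apart. Names were matched to 35639 of 35716 identifiers. The 10 genes and all lists were chosen with earlier results of these data known. After filterByExpr and TMM scaling, edgeR 4.0.16 (R 4.3.3) ran its quasi-likelihood test on 15202 genes, with the group alone as predictor and Benjamini-Hochberg adjusted p-values. Standard errors came from the fold change and its F statistic. The rule for names took all 13 network genes and, from each list, the 3 smallest adjusted p-values per direction, or the 2 highest-expressed genes if no gene passed. Where a list had 5 or fewer calls, all of them were named, which added CEBPA and RING1 after the values were seen. The 16 alternatives were RLE factors, library totals alone, ribosomal protein scaling, no low-count filter, only genes whose mean was at least 5 CPM, DESeq2 1.42.0, limma-voom (limma 3.58.1), a replicate block, a GC offset per library, removal of the trophoblast, blood, fibroblast and endothelial genes, and each library left out. The fit was tested on simulated data. Promoter windows are the 250 bases before RefSeq starts (GRCh38.p14). Exon lengths, overlaps and GC content are from GENCODE 29. Figures were drawn with matplotlib 3.10.9.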

Additional observations from a re-analysis of the deposited data

How the results depend on the processing

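Across the 16 alternatives, each of the 10 network genes other than MXI1 and MGA kept its sign. The number of network genes that rose, 2 in the reported analysis, was 1 with ribosomal protein scaling and 1 to 2 when a library was left out. The number that fell, 0, was 2 with the GC offset (MYC and MAX) and 0 in each analysis with a library left out. Over all genes, 1527 rose and 884 fell. A mean of at least 5 CPM gave 584 and 336, over 10290 genes, ribosomal protein scaling 1201 and 133, and the GC offset 2013 and 1855. With a library left out, 953 to 1580 rose and 407 to 1035 fell. Of all calls, 63.3% were higher, and 73.7% with library totals, 90.0% with ribosomal protein scaling and 52.0% with the GC offset. Activated MYC targets that fell, 12 in the reported analysis, numbered 7 with library totals, 1 with ribosomal protein scaling, 3 at a mean of at least 5 CPM, 19 with DESeq2 and 31 with the GC offset, and 2 to 18 with a library left out. Risen activated targets numbered 0 in all 16. At a mean of at least 5 CPM, MYCL and CDKN1C were not tested.

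The sign of the log2 fold change turned for MXI1 (0.068 with ribosomal protein scaling, -0.17 to 0.016 with a library left out), MGA (-0.51 to 0.055), HUWE1 (-0.070 to 0.38), RBBP7 (-0.021 to 0.12), HDAC1 (0.027 with ribosomal protein scaling), USF2 (-0.10 with the GC offset, -0.17 to 0.16 with a library left out), PRELID1 (0.058 with library totals, 0.19 with ribosomal protein scaling, 0.078 at a mean of at least 5 CPM, -0.17 to 0.11 with a library left out), RAB24 (0.087 with ribosomal protein scaling) and SNRNP27, which shares 3.73% of the MXD1 exon bases (0.059 with ribosomal protein scaling, 0.050 with the GC offset, -0.29 to 0.064 with a library left out), none of which passed the test. The cause of these changes was not tested.

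Same-numbered libraries did not deviate together (correlations 0.0286, -0.0411 and -0.439), where unlike-numbered pairs ran from -0.277 to 0.312. With so few libraries per group these values cannot show whether same-numbered libraries shared a culture, and the labels do not say. With the replicate block the counts were 1523 higher and 856 lower over all genes, 2 and 0 among the network genes, and 8 fallen MYC targets, and the calls of MLXIPL, TXNIP and DKC1 ended (adjusted p = 0.0636, 0.1 and 0.0512). MXD1, at 109 to 362 counts per library, and MXI1, at 132 to 246, were the least deeply counted of the 10 genes.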
